A study of Mus musculus with 10 samples.

Results

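Adgrv1, Cabp2, Adcy10, Rbm24, Atp8b5 and Slc9a5 are 6 genes picked for large or clear differences in liver signal between mice given ethanol on a high-fat diet and mice on the diet alone. The values of this same contrast chose them, so their levels, fold changes and calls below are a description and carry no test. The arrays held 10 probes for them, of which 7 passed a filter on dim signal, and each of the 6 genes was among the 15088 genes tested. The mice were adult male C57BL/6J, an inbred strain without any engineered allele, bought at 7 weeks of age and acclimatised for 1 week. In the HFD ethanol group the mice ate the 60% high-fat diet for 4 months and, after the first month, drank ethanol in their water for 3 months, with a daily intake per kg body weight of 5 g for the opening week and 10 g from then on. The HFD control group ate that diet for 4 months without ethanol. Both groups therefore carried diet-fed livers, and no group on standard chow was analysed here. Of 10 mice in each group, 5 were drawn at random, and each liver was hybridised alone to a 1-colour array, so n = 5 per group counts animals.

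These genes come from different families, and several are best known outside the liver. Adgrv1 encodes an adhesion receptor of exceptional length, coupled to G proteins, that forms links between the stereocilia of inner ear hair cells, and its loss causes a form of Usher syndrome in people. Cabp2 encodes a calmodulin-like calcium sensor that tunes voltage-gated calcium channels in hair cells. Adcy10 encodes the soluble adenylyl cyclase, which makes cyclic AMP in response to bicarbonate and calcium and is needed for sperm motility. Rbm24 encodes an RNA-binding protein that steers splicing in heart and skeletal muscle, Atp8b5 a phospholipid flippase of the P4-ATPase family known from mouse testis, and Slc9a5 a sodium-proton exchanger known from brain.

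Spots well above background made up 57.2% to 58.9% of each HFD ethanol array and 55.5% to 59.1% of each HFD control array, and no spot was saturated. The hepatocyte markers with a probe, 9 of 10 listed, were well above background on all 10 arrays. The arrays lay on 3 slides. Slide 1 held ethanol replicate 4 with control replicates 4 and 5, control replicates 1 and 3 were on slide 2, and slide 3 had ethanol replicates 1, 2, 3 and 5 with control replicate 2. Every slide was scanned once, so slide and scan cannot be told apart. Precision is limited by the number of arrays.

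The start-site windows of Adgrv1, Cabp2 and Adcy10 are shown because each holds a CCAAT box although the genes moved in opposite directions. They run from 250 bases before to 50 bases after the annotated start, 5′ to 3′ on the gene's strand, from RefSeq on build GRCm38.p6, and capitals mark the CCAAT box as read on either strand. The array was designed on mm9, so these positions are those of the sequence table and not of the probes. Adgrv1 lies on the minus strand at chr13:81633095-81633394, and its box starts at position -64. Cabp2 lies on the plus strand and has 2 windows, of which the second, at chr19:4083269-4083568, holds a box at position -127. Adcy10 lies on the plus strand at chr1:165484933-165485232, with its box at position -77.
Adgrv1: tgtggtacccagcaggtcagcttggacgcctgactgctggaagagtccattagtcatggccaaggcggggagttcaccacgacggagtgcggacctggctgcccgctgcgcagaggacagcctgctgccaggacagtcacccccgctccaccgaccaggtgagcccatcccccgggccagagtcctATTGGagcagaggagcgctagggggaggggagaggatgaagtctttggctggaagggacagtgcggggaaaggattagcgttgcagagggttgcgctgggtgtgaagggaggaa
Cabp2: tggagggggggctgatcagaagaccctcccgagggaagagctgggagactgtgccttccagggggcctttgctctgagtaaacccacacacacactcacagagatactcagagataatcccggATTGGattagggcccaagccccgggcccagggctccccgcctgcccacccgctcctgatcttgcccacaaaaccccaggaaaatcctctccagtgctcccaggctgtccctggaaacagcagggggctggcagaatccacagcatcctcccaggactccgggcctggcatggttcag
Adcy10: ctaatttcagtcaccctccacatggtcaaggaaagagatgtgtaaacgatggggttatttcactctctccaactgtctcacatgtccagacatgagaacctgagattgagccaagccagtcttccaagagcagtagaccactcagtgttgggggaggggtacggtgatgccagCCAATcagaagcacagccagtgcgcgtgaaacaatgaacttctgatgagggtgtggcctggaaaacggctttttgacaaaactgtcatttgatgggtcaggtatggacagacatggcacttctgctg
In Adgrv1 and Cabp2 the box reads ATTGG, its reverse complement. A set of 5 motifs was searched on both strands, with overlaps allowed. The CCAAT box (CCAAT) was found in 37.4% of all 32851 windows in the table and in 3 of the 7 windows of these genes. The GC box (GGGCGG) was found in 35.7% of all windows and in 2 of the 7, those of Atp8b5, with 3 matches of which 2 overlap, and of Slc9a5, with 2. The E-box (CACGTG, 7.15% of all windows), the TATA box (TATAAA, 13.6%) and the cAMP response element (TGACGTCA, 1.79%) were in 0 of the 7. Rbm24 and the first window of Cabp2 held none of the 5 motifs. GC content ran from 49.3% in Adcy10 to 64.7% in Rbm24, where the quartiles of all windows were 45.7% and 61.7%.

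Values below are scaled signals, the background-subtracted spot intensity divided by the 75th percentile of its array and multiplied by the mean of the 10 percentiles (337.7), with anything under 4 units set to 4. A signal is comparable between arrays for 1 probe, but not between probes. Fold changes are HFD ethanol over HFD control, and their SE is limma's moderated standard error.

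Adgrv1, the adhesion receptor, was lower in every HFD ethanol liver. Its brightest probe, A_51_P389539, read 369.8, 304.9, 240.2, 533.1 and 304 in ethanol replicates 1 to 5, against 964.9, 1241, 1990, 1638 and 1874 in control replicates 1 to 5. The groups did not overlap, and the ethanol array nearest to the controls, replicate 4, was 1.81-fold below the lowest control. The mean log2 signal was 8.40 ± 0.43 (SD, n = 5) with ethanol and 10.54 ± 0.44 (SD, n = 5) in controls, a log2 fold change of -2.14 ± 0.25 (SE). A second probe for the same RefSeq transcript, A_51_P389543, read 101.8, 112.3, 78.5, 122.3 and 76.1 with ethanol, against 219.4, 201.4, 362.5, 339.6 and 400.2 in controls. It too separated the groups, with a log2 fold change of -1.61 ± 0.22 (SE). Over the 10 arrays the log2 values of the pair correlated at r = 0.98, and at r = 0.83 once each group's mean was subtracted, as a description over arrays that the probes share. The third probe, A_52_P192596, was not well above background on any array. It was at the floor on 4 ethanol and all 5 control arrays, so it gives no fold.

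Cabp2, the calcium sensor, was higher in every HFD ethanol liver. Its only probe, A_51_P187625, read 109.8, 67.4, 127.3, 54.4 and 190.7 in ethanol replicates 1 to 5, against 18.6, 17.6, 14.9, 18.2 and 14.3 in control replicates 1 to 5. The control values lay within 1.31-fold of each other and the ethanol values within 3.51-fold, and the groups were 2.92-fold apart at their nearest. Control replicate 3 was not well above background, while all 5 ethanol arrays were. The mean log2 signal was 6.64 ± 0.73 (SD, n = 5) with ethanol and 4.05 ± 0.18 (SD, n = 5) in controls. The log2 fold change was 2.58 ± 0.30 (SE), the second largest in size of all genes tested. With normexp background correction, which adds an offset of 50 units to these dim spots, it was 1.06.

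Adcy10, the soluble adenylyl cyclase, was seen well above background only with ethanol. Probe A_51_P256747 read 20.4, 16.5, 9.87, 21.4 and 41.8 in ethanol replicates 1 to 5, and all of these except replicate 3 were well above background. No control array was, with readings of 4.82, 4, 4, 4.95 and 4 in control replicates 1 to 5, where 4 is the floor. The mean ethanol signal was 1.72-fold above the dimmest signals well above background on the control arrays, which is no strict bound. The measured log2 means were 4.30 ± 0.75 (SD, n = 5) with ethanol and 2.12 ± 0.16 (SD, n = 5) in controls, and the fitted difference of 2.18 ± 0.31 (SE) depends on the floor: it was 3.38 with a floor of 1 unit and 0.295 with normexp. The other Adcy10 probe, A_55_P2058995, did not pass the filter. It read 5.39, 4, 9.07, 11.1 and 10.4 with ethanol, of which only replicate 4 was well above background, against 4, 4.08, 5.63, 4 and 4.56 in controls, so its groups overlapped and no fold is given.

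Rbm24, the splicing regulator, had the opposite pattern of detection. Its only probe, A_52_P920158, read 4, 5.78, 5.25, 7.52 and 8.68 in ethanol replicates 1 to 5, none of them well above background. The 5 control arrays read 32.3, 22.6, 12.5, 45.1 and 26.7, and all but replicate 3 were well above background. The groups did not overlap, with a gap of 1.44-fold between ethanol replicate 5 and control replicate 3. The mean control signal was 2.21-fold above the dimmest signals well above background on the ethanol arrays, which again is no strict bound. The measured log2 means were 2.59 ± 0.44 (SD, n = 5) with ethanol and 4.68 ± 0.69 (SD, n = 5) in controls. The fitted difference of -2.09 ± 0.33 (SE) became -2.43 with a floor of 1 unit and -0.472 with normexp.

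Atp8b5, the flippase, was lower in every HFD ethanol liver by its bright probe. A_55_P1974487 read 55.7, 56.6, 34.6, 85.5 and 58.1 in ethanol replicates 1 to 5, against 212.6, 148.5, 137.4, 140.9 and 166.7 in control replicates 1 to 5. All 10 readings were well above background and the groups did not overlap, the nearest being ethanol replicate 4 and control replicate 3, 1.61-fold apart. The mean log2 signal was 5.80 ± 0.46 (SD, n = 5) with ethanol and 7.31 ± 0.26 (SD, n = 5) in controls, a log2 fold change of -1.51 ± 0.22 (SE). It was -0.932 with normexp. The second probe, A_51_P203653, is listed for the same transcript but was not well above background on any array, with readings between 4 and 8.25 with ethanol and between 4 and 5.47 in controls.

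Slc9a5, the sodium-proton exchanger, was higher in every HFD ethanol liver. Its only probe, A_55_P2501511, read 1196, 1162, 1526, 1346 and 1694 in ethanol replicates 1 to 5, against 791.3, 706.2, 818.1, 900.5 and 763.6 in control replicates 1 to 5. The groups did not overlap, and their nearest arrays were 1.29-fold apart. The mean log2 signal was 10.42 ± 0.23 (SD, n = 5) with ethanol and 9.63 ± 0.13 (SD, n = 5) in controls, a log2 fold change of 0.79 ± 0.12 (SE). Between normalizations, background corrections and floors it stayed between 0.757 and 0.788. Its fold change ranked 455th in size among the genes tested, against 8th for Adgrv1 and 42nd for Atp8b5.

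**Figure D1:**
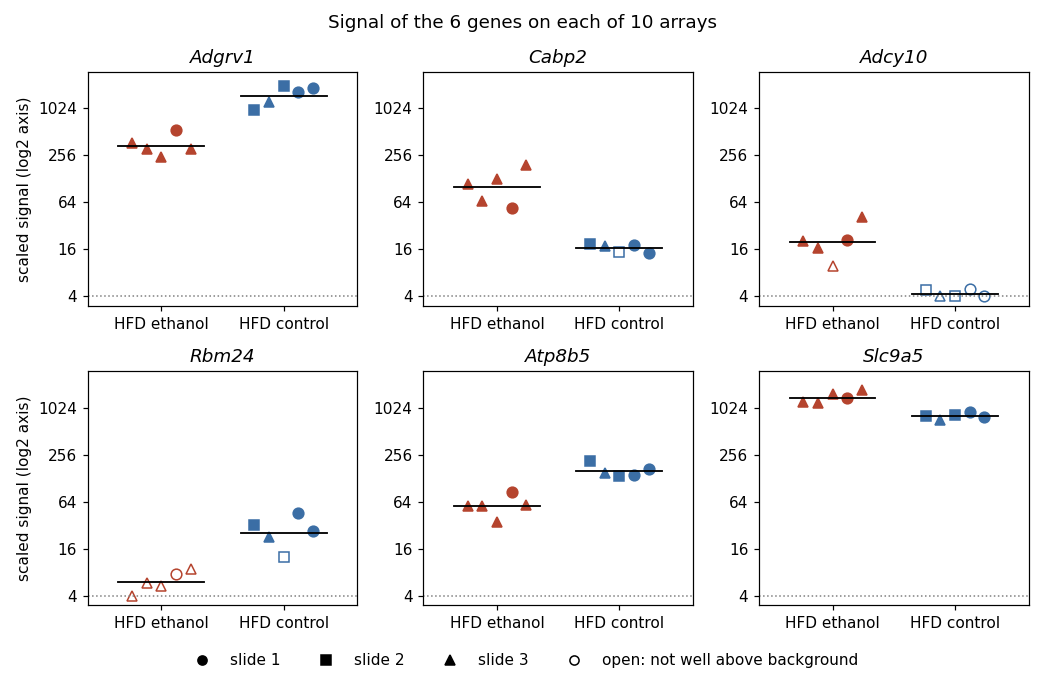
Scaled signal of each gene's brightest probe on each array (log2 axis), HFD ethanol in red and HFD control in blue, with the marker shape giving the slide, open markers for signals not well above background, black bars for the mean of log2 values and a dotted line at the floor of 4. The groups do not overlap in any of the 6 genes, and Adcy10 in controls and Rbm24 with ethanol have open markers only.

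**Figure D2:**
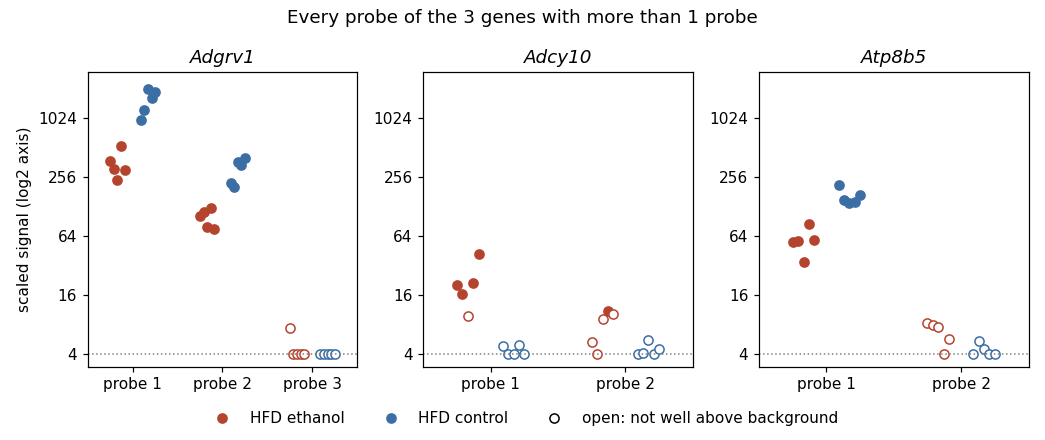
Scaled signal (log2 axis) of every probe of Adgrv1, Adcy10 and Atp8b5 on each array, brightest probe first, HFD ethanol in red and HFD control in blue, open markers for signals not well above background. The first 2 Adgrv1 probes separate the groups. The last probe of each gene is dim, with readings from the floor of 4 up to 11.1, for Adcy10 in ethanol replicate 4.

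The same limma fit over all 15088 genes called 3 at a Benjamini-Hochberg adjusted p under 0.05, or 0.0199%, of which 2 were higher and 1 lower with ethanol. Adgrv1 and Cabp2 were among the 3, and the other 4 genes were not in this fit. The groups did not overlap for 460 genes, or 3.05%, and for each of the 6. Taking every kept probe apart, the groups did not overlap for 2.78% of 31106 probes, and for all 7 kept probes of these genes. These counts restate how the 6 were picked. By unadjusted p they ranked between 2 and 10 among all genes tested. Calls depended on single animals: Adgrv1 was called without control replicate 1 or ethanol replicate 4 and in no other fit that left out 1 array, and Cabp2 only without ethanol replicate 4 or 5. Adcy10 was called without ethanol replicate 3 or 5, and Atp8b5 without ethanol replicate 4. Adcy10 and Rbm24 passed the filter on dim signal only through the group where they were higher. For Adcy10 3 control values lay at the floor, which narrows the spread behind its calls. The fold change of the brightest Adgrv1 probe ran between -2.31 and -2.02 over those 10 fits, and that of Cabp2 between 2.35 and 2.80.

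**Figure D3:**
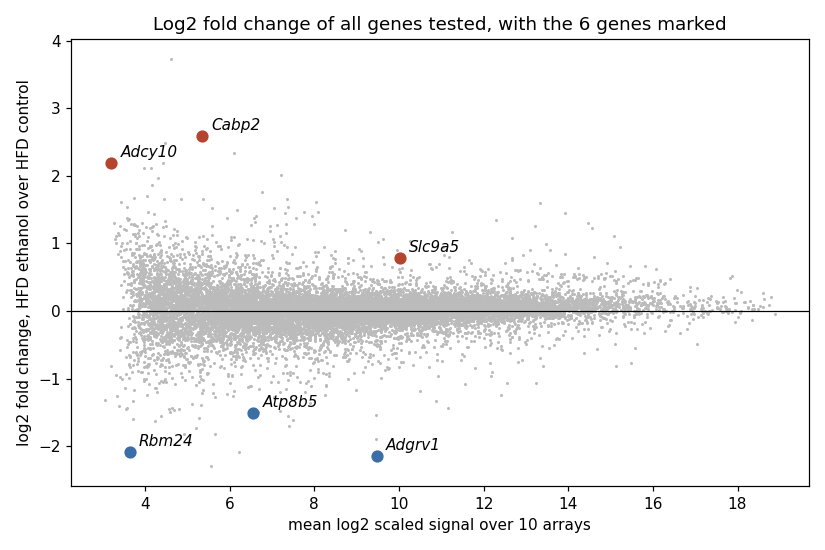
Log2 fold change of HFD ethanol over HFD control against the mean log2 scaled signal over 10 arrays, with 1 grey point for each of 15088 genes and the 6 genes marked in red (higher) and blue (lower). Cabp2 lies at 2.58 and Adgrv1 at -2.14, while Adcy10 and Rbm24 lie at the dim end of the range.

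Because the groups did not overlap for any of the 6, the direction within a slide was fixed beforehand, and only sizes are informative. On slide 1, with 1 ethanol and 2 control arrays, the log2 fold changes were -1.72 for Adgrv1, 1.76 for Cabp2, 2.26 for Adcy10, -2.21 for Rbm24, -0.842 for Atp8b5 and 0.699 for Slc9a5. On slide 3, with 4 ethanol arrays and 1 control array, the same genes had -2.04, 2.72, 2.27, -1.99, -1.56 and 0.963. Slide 2 held controls only. With the slide as a block the values were -1.89, 2.28, 2.27, -2.09, -1.24 and 0.843, and no gene of the 15088 passed. The array's column on its slide went with the groups, since both arrays in column 1 were ethanol and all 3 in column 4 were control. With the column as a covariate the values were -1.84, 2.48, 2.53, -1.82, -1.18 and 0.818, again with no gene past the threshold. The part of slide and column in the calls was not tested further.

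**Figure D4:**
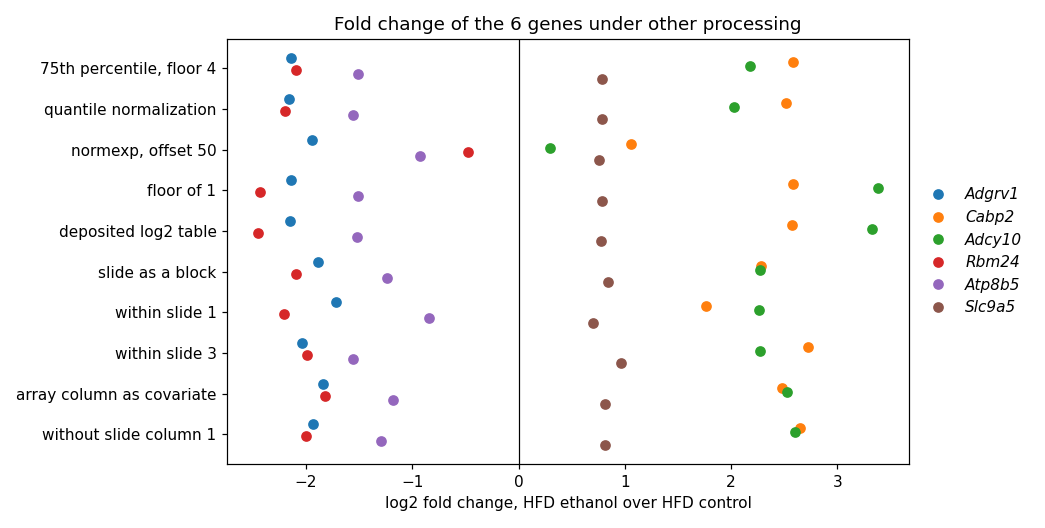
Log2 fold change of HFD ethanol over HFD control for the brightest probe of each gene, 1 colour a gene, under 10 ways of processing, 1 row each. Sizes rather than sides of 0 differ between rows, and with normexp Adcy10 moves to 0.295 and Rbm24 to -0.472.

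The ethanol livers did not hold 1 order across the 6 genes. Ethanol replicate 4, the only ethanol array on slide 1, was the nearest to the controls for Adgrv1, Cabp2 and Atp8b5. The nearest was replicate 3 for Adcy10, replicate 5 for Rbm24 and replicate 2 for Slc9a5. Ethanol replicate 5 lay farthest from the controls for the 3 genes that were higher, Cabp2, Adcy10 and Slc9a5. Among controls, replicate 3 had the highest Adgrv1 and the lowest Rbm24 and Atp8b5. After subtracting group means, which removes the contrast the genes were chosen on, the 15 pairs among the 6 genes correlated between r = -0.57, for Adgrv1 with Cabp2, and r = 0.61, for Cabp2 with Slc9a5, over the 10 arrays. These are descriptions, since the genes share the arrays and their scaling.

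The tested genes whose pattern over the 10 arrays was most like each of the 6 were listed by Pearson correlation of log2 signal, as a description in which the difference between groups weighs heavily. Here and with group means subtracted, each r was picked as among the highest of all genes tested, over 10 arrays. High values therefore come with the choice. For Adgrv1 they were Slc13a3 (r = 0.93), Gm45941 (r = 0.93) and Snhg10 (r = 0.91). Cabp2 was closest to Hsbp1l1 (r = 0.99), Nhlrc3 (r = 0.99) and Slc6a9 (r = 0.96), and Adcy10 to Bckdk (r = 0.96), Dera (r = 0.95) and Gpd1 (r = 0.95). Rbm24 was closest to Myh10 (r = 0.97), Vegfc (r = 0.96) and Apaf1 (r = 0.94), and Atp8b5 to Pros1 (r = 0.95), Klf4 (r = 0.95) and Ces1a (r = 0.94). For Slc9a5 they were Pdhb (r = 0.98), Pigx (r = 0.96) and Ttc25 (r = 0.95).

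With group means subtracted the closest genes were others in every case. They were Pde8b (r = 0.95), 6430550D23Rik (r = 0.94) and Fam204a (r = 0.93) for Adgrv1, and Klc3 (r = 0.94), Tbx20 (r = 0.93) and Plod2 (r = 0.93) for Cabp2. Adcy10 was then closest to Gpam, an enzyme of triglyceride synthesis (r = 0.97), and Cdc42ep3 (r = 0.96). Of the deviations of Adcy10, those of the 5 control arrays span only the floor to 4.95 units, so its pattern rests on the ethanol arrays. Rbm24 was closest to Mpp6 (r = 0.97), Stk24 (r = 0.97) and Fam50a (r = 0.97). None of its 5 ethanol readings was well above background, so that part of its pattern comes from dim signals. Atp8b5 was closest to Phldb1 (r = 0.92), Samd9l (r = 0.91) and Khdc3 (r = 0.90), and Slc9a5 to Fam187b (r = 0.92), Gm32556 (r = 0.91) and Taf5l (r = 0.90).

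Relatives and partners of the 6 genes gave no call. Of 157 genes on 8 lists, 102 were tested, 53 did not pass the filter on dim signal and 2 had no probe named here. In limma 0 of the 102 passed the adjusted threshold in either direction, against 0.0199% of all genes. An unadjusted p under 0.05 was held by 13 of the 102, and by 2002 of all 15088 genes. The groups did not overlap for 0 of the 102, against 3.05% of all genes. Their median log2 fold change was 0.05, and that of all genes 0.03. The values that follow are therefore given as values only.

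Of the 14 partners of Adgrv1 in stereociliary links 8 were tested, with a median log2 fold change of 0.16. Pdzd7, of the same ankle link complex, did not pass the filter, and Whrn, a scaffold of that complex, had 0.29 ± 0.32 (SE). The smallest p were those of Ush1g, at 0.22 ± 0.09 (SE), and the G protein subunit gene Gnai1, at 0.52 ± 0.21 (SE). Among 28 other adhesion receptors 19 were tested, with a median of -0.04. Adgrl1, a latrophilin, had -0.43 ± 0.12 (SE). Adgrf3 had 1.26 ± 0.44 (SE), and 5 ethanol and 3 control arrays read it well above background.

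Of 20 calmodulin-like sensors 14 were tested, with a median of 0.02. Cabp5, a close relative of Cabp2, had -0.43 ± 0.22 (SE), and Guca1b, a photoreceptor calcium sensor, had 0.29 ± 0.14 (SE). Of 25 adenylyl cyclases and cyclic AMP effectors 20 were tested, with a median of 0.00043 and equal numbers, 10 each, above and below 0. Prkar2b, a regulatory subunit of protein kinase A, had -0.47 ± 0.16 (SE), and the catalytic subunit gene Prkacb 0.20 ± 0.10 (SE). The membrane cyclases tested, Adcy4, Adcy5, Adcy6, Adcy7 and Adcy9, lay between -0.39 for Adcy7 and 0.12 for Adcy4.

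Of 17 splicing regulators 14 were tested, 13 of them with a value above 0 and a median of 0.10. Of all genes 56.4% lay above 0 in this fit, and 47.3% with quantile normalization. The exception was Rbm38, the nearest relative of Rbm24, at -0.32 ± 0.09 (SE). Esrp1, an epithelial splicing regulator, had 0.58 ± 0.22 (SE). Of 17 flippases and their subunits 9 were tested, with a median of -0.06. Atp8a1 had -0.44 ± 0.20 (SE) and Atp8b1, the flippase of the bile canaliculus, -0.17 ± 0.14 (SE). Of 16 sodium-proton exchangers and regulators 11 were tested, with a median of 0.06. Chp2, an exchanger cofactor, had 0.25 ± 0.10 (SE), and the sperm exchanger gene Slc9c1 had 1.01 ± 0.53 (SE), read well above background on 4 ethanol arrays and 1 control array.

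Since Adgrv1, Cabp2 and Rbm24 act in hair cells, 20 other hair cell genes were listed, of which 7 were tested, with a median of 0.19. Slc17a8, a glutamate transporter gene, had 0.38 ± 0.16 (SE), and Loxhd1 0.22 ± 0.12 (SE).

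**Figure D5:**
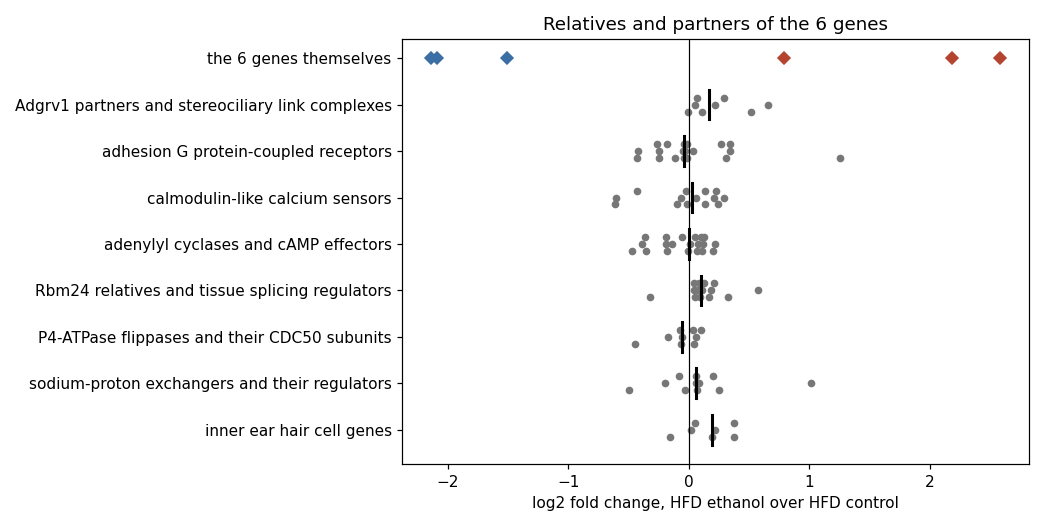
Log2 fold change of HFD ethanol over HFD control for the 102 tested relatives and partners by list (grey points, black bar at the median), with the 6 genes themselves as diamonds above, red for higher and blue for lower. The 102 lie between -0.61 and 1.26, and the list medians between -0.06 and 0.19.

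Markers of other cells were read on the same arrays. In whole tissue, fewer cells of a type and less RNA per cell cannot be told apart. No tested marker of the 14 lists passed the threshold, against 0.0199% of all genes. None separated the groups, against 3.05% of all genes. Of the 5 germ cell markers, Prm1, Ddx4, Dazl and Acrv1 were not well above background on any array. The remaining one, Tnp1, a sperm chromatin protein gene, was well above background on all 10 arrays and had a log2 fold change of 0.76 ± 0.22 (SE), which did not pass in limma (adjusted p = 0.245). The summed signal of the 5 ran from 60.1 to 82.8 with ethanol and from 50.9 to 76.3 in controls. Of 5 skeletal muscle markers, Ckm and Myh4 were not well above background on any array, and their summed signal ran from 148.1 to 203.7 with ethanol and from 143.2 to 165 in controls. The summed signal of 7 stellate cell markers ran from 19520 to 27390 with ethanol and from 25170 to 33850 in controls, with a median log2 fold change of -0.33, and all 7 were well above background on all arrays. The sum of 7 bile duct markers ran from 1249 to 5632 with ethanol and from 3159 to 9430 in controls, with a median of -0.39 over the 5 tested. The 4 neutrophil markers with a probe summed to between 625.3 and 1126 with ethanol and between 922.7 and 1391 in controls, with a median of -0.40. Medians over the tested markers of other lists were 0.05 for hepatocytes, -0.04 for Kupffer cells and macrophages, and 0.01 for endothelium. They were -0.18 for lymphocytes, -0.21 for erythroid cells, and -0.22 for Schwann cells and neurons. Adipocyte markers had 0.09, pancreatic acinar markers -0.01, mesothelial markers -0.04 and skeletal muscle markers 0.13. What part these cell types had in the values of the 6 genes was not tested.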

How the data were processed

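Per the labels, RNA from 10 livers went to 10 one-colour Agilent arrays, 5 per group. The authors deposited 1 scanner table per array with spot intensities, made with Agilent Feature Extraction 10.7.3.1 per the file headers. The processed intensity is already background-subtracted there. They also deposited a table of values on a log2 scale whose deviations from each probe's mean followed those of the scaled intensities (r = 1 on each array, to 4 decimals, over 13685 bright probes, with median absolute differences of 0.0023 to 0.021). Dim probes can differ more, as the floor of 4 units is not in that table. The centre it subtracts from each probe stays unknown and cancels in differences between groups, and its column medians ran from -0.12 to 0.08.

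Control and outlier spots were left out, intensities were scaled to the 75th percentile, floored at 4 units and put on a log2 scale, and spots of 1 probe were averaged. The 75th percentiles ran from 279.9 to 387.4. A probe was kept if well above background on at least 4 of 5 arrays of a group (31110 of 56605 probes). The files hold no gene name column: names came from each probe's accession through the RefSeq table for GRCm38.p6, which named 32994 probes, and 23611 are unnamed here. The brightest kept probe stood for a gene. The contrast was fitted with limma 3.58.1 (R 4.3.3) and Benjamini-Hochberg adjustment, after a test on simulated data. The genes described were every probe of the 6 genes, on each list any called gene or else the 2 with the smallest p, and the 3 genes closest in pattern. A gene close in pattern to Adcy10 is not reported here. Further list genes (Pdzd7, Whrn and the membrane cyclases) were named after their values were seen. The 6 genes, the lists and the alternatives were chosen with earlier results of these data known. Where normexp on mean spot signals was planned, median signals took its place. The smallest root mean square difference between 2 arrays was 0.301 on the log2 scale, so no 2 arrays hold the same values.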

Additional observations from a re-analysis of the deposited data

How the results depend on the processing

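The values of the 7 kept probes were recomputed under 14 alternatives each, with 1 more, the mean of a gene's probes, for Adgrv1, and with each array left out, 169 values in all. None reversed, which the lack of overlap fixes for fits on fewer arrays. Of the 169 values, 159 moved by less than 1 SD between replicates, among them all 70 that left out 1 array, which the group size fixes. Those that moved further were, with normexp, Adgrv1's second probe (-1.22), Cabp2 (1.06), Adcy10 (0.295), Rbm24 (-0.472) and Atp8b5 (-0.932); within slide 1, Cabp2 (1.76) and Atp8b5 (-0.842); within slide 3, Adgrv1's second probe (-1.15); and Adcy10 with a floor of 1 (3.38) and in the deposited log2 table (3.33). Normexp adds 50 units to every spot by construction, which compresses dim probes, and a lower floor stretches them. Leaving out 1 array cannot move the mean of a group of this size by 1 SD. The 70 values without 1 array therefore carry no test of stability. Changing the filter on dim probes, taking every kept probe apart and the replicate block return a probe's fold change unchanged by construction. The values from these settings carry no such test either.

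The count of genes past the threshold, 3 in the fit described, was 7 with normexp (4 higher and 3 lower), 12 with the slide as a random block (8 higher and 4 lower, at a slide correlation of -0.13), and 0 without the filter on dim probes, with the slide as a fixed block, within slide 1, within slide 3, with the array column as a covariate and with the replicate block. In limma 2002 genes had an unadjusted p under 0.05 in the fit described. The number was 2406 without the filter, of 22910 genes, and 806 with the slide as a fixed block. It was 866 with the array column as a covariate and 2443 with the replicate block. With probes well above background on all 10 arrays there was 1 higher gene, and without slide column 1 there were 0 lower. Over the fits without 1 array the count ran from 0 to 7, with 0 to 3 higher and 0 to 4 lower: 0 without control replicate 3, 4 or 5 or ethanol replicate 1, 1 without ethanol replicate 2, and 7 without ethanol replicate 4. The cause was not tested. The labels give no pairing, so replicate numbers shared between the groups were not taken as pairs. Deviations of same-numbered arrays correlated between -0.11 and 0.32. Without the same measure for other numbers these values cannot decide on pairing. In the quantile-normalized data 47.3% of genes lay above 0, against 56.4% in the fit described.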
